A study of Mus musculus with 6 samples.

Results

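Toll-like receptors and the genes of the inflammasome make up the part of the innate immune system by which a cell recognises microbes and damage. They were examined in cells sorted from the myenteric plexus, the net of ganglia that lies between both muscle coats of the bowel, in the mouse colon. The genes were chosen by symbol: numbered Tlr genes, Nlrp, Nlrc and Naip genes, Irak and Ticam genes, and Nod1, Casp1, Casp4, Pycard, Mefv, Aim2, Myd88, Cd14 and Ly96. This gave 44 genes, measured by 59 probe sets, out of 18193 genes on the array. Where a gene had several probe sets, the one with the highest average over the 6 libraries stood for it. Nod2, Irak4, Ticam2, Nlrc4 and the Nlrp1 genes were not analysed here.

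Both groups came from Mapttm1(EGFP)Klt/J mice, in which EGFP sits at the locus of Mapt, the gene of the microtubule protein tau. The Mapt-EGFP+ group, labelled as colonic neurons, and the Mapt-EGFP- group, labelled as myenteric cells, hold 3 sorted samples each. Each sample pools cells of 2, 4 or 6 mice, and the labels do not say which sample had which number. All mice had fluorescent cholera toxin subunit B injected into the celiac ganglion and were killed 3 to 4 days later, so no group without surgery is in the comparison. The labels do not give age or sex. RNA was hybridised to Affymetrix Mouse Genome 430.2 arrays, and all values are log2 values as deposited; 3 values in a row are those of replicates 1, 2 and 3.

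The tau gene did not match the labels in every library. The EGFP insertion is known to interrupt the tau coding sequence, and the labels do not give the zygosity, so Mapt by itself is a weak check. In the libraries labelled EGFP-positive the Mapt value was 1.43, 1.32 and 5.55, against 1.44, 1.64 and 1.38 in the EGFP-negative ones. TrpnX, a bacterial control transcript, read 1.00 to 1.48 and marks the background, so Mapt was near background in EGFP-positive replicates 1 and 2 as in the 3 EGFP-negative libraries. Elavl4, which encodes a neuronal RNA-binding protein, read 1.81, 2.24 and 7.48 in the EGFP-positive libraries, against 2.77, 2.83 and 3.46 in the EGFP-negative libraries. The 9 neuron markers measured, Mapt included, averaged 3.27, 3.32 and 6.92 in the EGFP-positive libraries, against 3.37, 3.73 and 3.83 in the EGFP-negative libraries. The neuronal label was therefore borne out by its markers in EGFP-positive replicate 3 alone, and EGFP+ and EGFP- name the labelled sort gates in what follows. Where it matters, values are also given for EGFP-positive replicate 3 alone against the 3 EGFP-negative libraries, a comparison added after the data were seen, in which the lone library is assumed to vary like the others. Libraries correlated with each other at r = 0.924 to 0.975, and 6182 to 7621 of 45101 probe sets read over 6, with the fewest in EGFP-negative replicate 1.

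Toll-like receptors bind microbial molecules. TLR1, TLR2, TLR4, TLR5 and TLR6 do so at the cell surface, and TLR3, TLR7, TLR8, TLR9 and the mouse receptors TLR12 and TLR13 do so in endosomes, where several of them read nucleic acids. Their signal runs through the adaptor MyD88 and the IRAK kinases, or through the adaptor TRIF (Ticam1), to NF-kB and interferon regulatory factors. Inflammasomes are cytosolic complexes in which a sensor such as NLRP3, AIM2, a NAIP protein or pyrin (Mefv) gathers the adaptor ASC (Pycard) and caspase-1, which cuts pro-interleukin-1 beta into its secreted form. In the gut wall these systems are known best from macrophages and other myeloid cells, and enteric neurons and glia are known to carry some of the same receptors.

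Promoter sequence is shown for 4 of the genes whose groups did not overlap, 3 with an upstream match to the motif described here and Mefv, because PU.1, the transcription factor of myeloid cells, is known to bind purine-rich sites in myeloid promoters. The windows come from RefSeq (GRCm38.p6) and run 250 bases before to 50 bases after each start site. A script matched 36 of the 44 genes. The stretches below are read 5′ to 3′ on the strand of the gene, and capitals mark GAGGAA, the PU.1 core searched, or its reverse complement TTCCTC. Tlr1 is on the minus strand (chr5:64933559-64933641), Tlr13 on the plus strand (chrX:106143132-106143257), Casp1 on the plus strand (chr9:5298349-5298474) and Mefv on the minus strand (chr16:3718125-3718224). Counted from the start site, the core begins at -23 in Tlr1, at -83 in Tlr13 and at -108 in Casp1. Aim2, also without overlap, holds the core at -140 and -113 and is not shown. The 4 genes were picked for display, and the other genes without overlap are not shown either. Pycard, Ticam1, Nlrp3, Irak3, Tlr8, Tlr9 and Nlrp4c, whose groups overlapped, also hold the core in their windows. Mefv holds no match in its window, and the last 100 bases before its start site are shown.
Tlr1: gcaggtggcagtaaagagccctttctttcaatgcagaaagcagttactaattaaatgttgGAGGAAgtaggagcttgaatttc
Tlr13: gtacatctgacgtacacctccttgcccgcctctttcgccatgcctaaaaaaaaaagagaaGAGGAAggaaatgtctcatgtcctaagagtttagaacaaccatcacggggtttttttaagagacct
Casp1: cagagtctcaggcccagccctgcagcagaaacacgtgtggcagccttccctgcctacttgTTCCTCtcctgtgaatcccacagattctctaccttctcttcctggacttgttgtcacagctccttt
Mefv: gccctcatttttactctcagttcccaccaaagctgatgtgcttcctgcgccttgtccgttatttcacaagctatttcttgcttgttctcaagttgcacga
The core was not a mark of these genes as a group. On either strand it was in the window of 11 of the 36 matched genes, in 11 of their 46 windows (23.9%), and in 9289 of all 32851 promoter windows (28.3%). The AP-1 motif TGANTCA, which does not contain the core, was in 6 of the 36 genes and in 7 of their 46 windows (15.2%), against 2565 of all windows (7.8%). A match is a run of letters and not a measured binding site.

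Between the sort gates, most of the 44 genes read lower in the EGFP+ libraries, and none of them passed the test over all genes. The mean was lower in EGFP+ for 35 genes and higher for 9, beside 9748 lower and 8441 higher of all 18193 genes. The median log2 difference, EGFP+ minus EGFP-, was -0.23 over the 44 genes and -0.02 over all genes. The clearest single separation was that of Mefv, and the widest difference was that of Cd14, the co-receptor for lipopolysaccharide. Without EGFP+ replicate 3, Cd14 was at -1.45 and Tlr13 was wider, at -1.54. Tlr1, Tlr13, Tlr7 and Casp1 also read lower in every EGFP+ library than in any EGFP- library. Tlr3, Tlr4 and Nod1 averaged higher in EGFP+, with overlapping groups or a difference inside its error.

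By limma over all 18193 genes with Benjamini-Hochberg adjustment, 0 of the 44 genes had an adjusted p under 0.05, as did 0.0% of all genes. At an unadjusted limma p under 0.05, 6 of the 44 genes (13.6%) were lower, namely Mefv, Tlr1, Tlr13, Tlr7, Tlr6 and Aim2, beside 3.42% of all genes, and 0 were higher, beside 1.48%. The labels state no pairing of EGFP+ with EGFP- libraries. Libraries of the same replicate number were taken as pairs only because their values deviated together in these same data. With the number as a block on that assumption, 10 of the 44 (22.7%) were lower, beside 4.54% of all genes. These were Mefv, Nlrc5, Ly96, Nlrp3, Casp1, Tlr7, Tlr1, Tlr13, Irak3 and Cd14. In that paired fit Tlr3 was the 1 gene with a higher value (2.27%), beside 2.85% of all genes, and the smallest adjusted p of the 44 was 0.661 by limma.

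The groups did not overlap, with every EGFP+ library lower than every EGFP- library, in 9 of the 44 genes (20.5%), beside 6.04% of all genes. These were Mefv, Cd14, Casp1, Tlr1, Tlr13, Tlr7, Tlr6, Aim2 and Nlrp12. In the opposite direction 0 of the 44 did, beside 3.07% of all genes. The count of 9 moved with single libraries and so did the share of all genes. It was 16 without EGFP+ replicate 1 (11.6% of all genes), 14 without EGFP+ replicate 2 (10.3%) and 16 without EGFP- replicate 1 (15.1%). With EGFP+ replicate 3 alone it was 31 of 44 (70.5%), beside 29.2% of all genes.

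Numbers 1, 2 and 3 did not show the same separation. The median difference over the 44 genes between the libraries of one number was -0.08 for number 1, -0.25 for number 2 and -0.33 for number 3. The value was lower in EGFP+ in all 3 such pairs for 21 of the 44 genes and higher in all 3 for 3 genes, Tlr3, Tlr4 and Nlrp4a. Over all genes these counts were 2952 and 2055 of 18193. Nlrp4a read 1.05 to 1.52, near background, and its difference in number 2 was 0.0 after rounding.

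Not every gene gave a signal well above background. The 23 other genes read under 3 in all 6 libraries and are called dim here; their median difference was -0.13, against -0.71 for the 21 brighter ones. Since a bright reading in 1 group is enough to leave the dim class, the contrast between these medians is no support for a difference. Nlrp14, Nlrp4b, Nlrp4c and Tlr5 stayed within the TrpnX range in all 6 libraries. In 9 of the 44 genes several probe sets were present, and in Irak1, Pycard and Tlr4 these disagreed in the sign of the difference. The Pycard probe set of opposite sign read 1.13 to 1.28 and that of Tlr4 1.17 to 1.41. Both stayed within the TrpnX range, so their signs carry little weight.

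**Figure D1:**
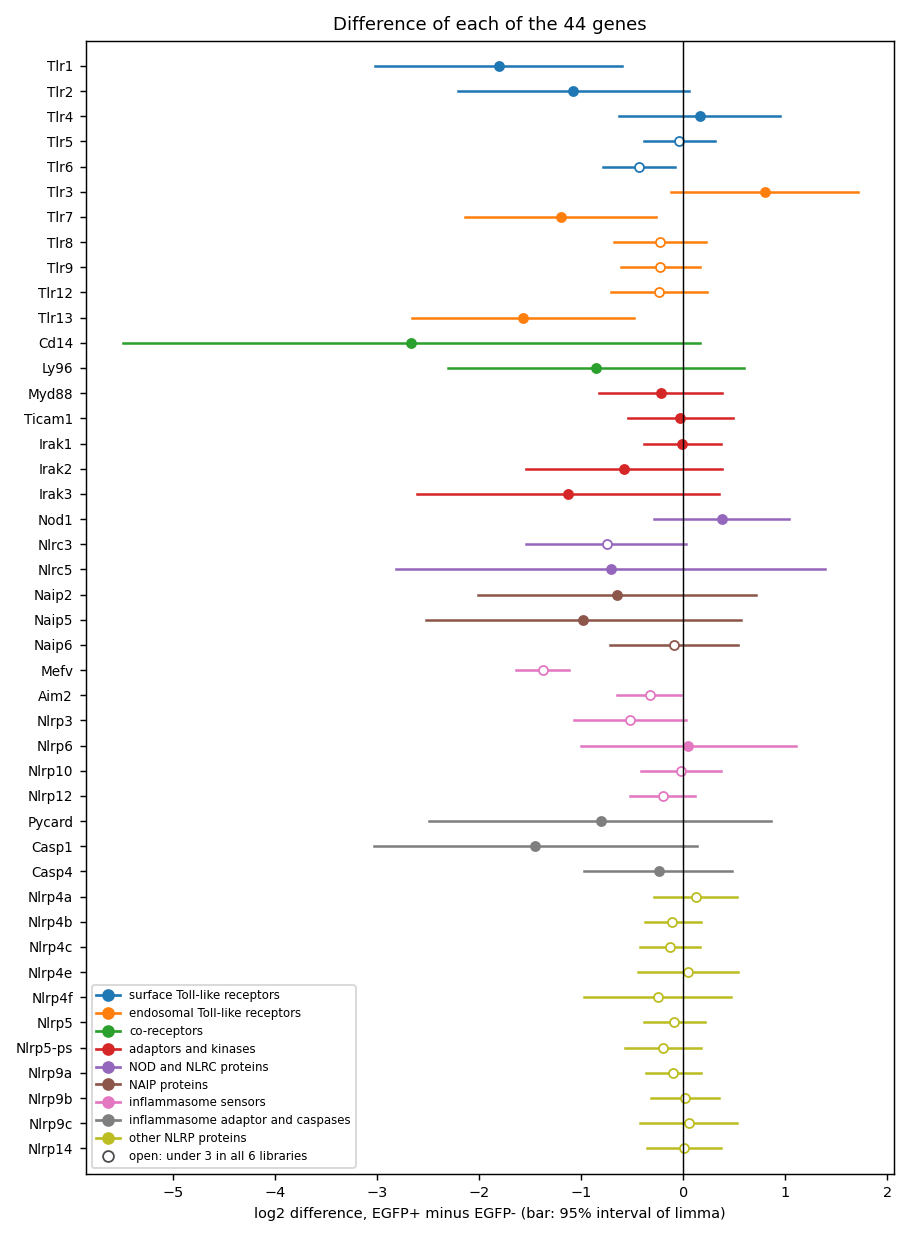
Log2 difference (x axis, EGFP+ minus EGFP-) of each of the 44 genes with its 95% limma interval, 3 libraries per group. Colours mark the role of the gene and open circles the 23 genes that read under 3 in all 6 libraries; 35 points lie left of 0, and the widest interval is that of Cd14.

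Among the surface receptors, Tlr1 stood apart between the gates, Tlr2 did so in 2 of 3 pairs and Tlr4 did not. Tlr1, which recognises lipopeptides together with TLR2, read 4.24, 4.09 and 2.63 in EGFP+, against 5.05, 5.52 and 5.83 in EGFP-. All 3 EGFP+ libraries lay below the EGFP- libraries, most of all EGFP+ replicate 3. The means were 3.65 ± 0.89 in EGFP+ and 5.47 ± 0.40 in EGFP- (SD), a log2 difference of -1.81 (SE 0.49) with an adjusted p of 0.984 by limma. Without EGFP+ replicate 3 the difference was -1.30, and with that library alone it was -2.84.

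Tlr2, the partner receptor of TLR1 and TLR6, read 4.96, 4.19 and 4.75 in EGFP+, against 4.87, 6.51 and 5.76 in EGFP-. The groups overlapped through number 1, where the difference was 0.09, and the log2 difference was -1.08 (SE 0.46). Tlr4, the lipopolysaccharide receptor, read 4.42, 5.24 and 4.80 in EGFP+, against 4.22, 5.15 and 4.61 in EGFP-. Its difference of 0.16 (SE 0.32, 95% interval -0.63 to 0.95) was within the spread between libraries. The 3 other Tlr4 probe sets gave 0.31, 0.53 and -0.02, the last from readings of 1.17 to 1.41, within the TrpnX range. The interval leaves room for a difference of either sign.

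Tlr6, the other partner of TLR2, was dim and read 1.37, 1.18 and 1.22 in EGFP+, against 1.48, 1.84 and 1.74 in EGFP-. The EGFP+ values lay within the TrpnX range and the EGFP- values at its upper end or above it, with a log2 difference of -0.43 (SE 0.14). Tlr5, the flagellin receptor, read 1.11 to 1.4 over the 6 libraries and was not distinguishable from background.

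Of the 6 endosomal receptors, 5 averaged lower in EGFP+ and 1 higher. Tlr13, the mouse receptor for bacterial ribosomal RNA, and Tlr7, a receptor for single-stranded RNA, were lower in every EGFP+ library than in any EGFP- library. Both were near background in EGFP+, apart from Tlr13 in EGFP+ replicate 1, at 2.01. Tlr3, the receptor for double-stranded RNA, averaged higher in EGFP+, with overlapping groups. Tlr13 read 2.01, 1.43 and 1.63 in EGFP+, against 2.35, 3.95 and 3.46 in EGFP-. The difference was -1.57 (SE 0.44, adjusted p 0.985 by limma), and it was smallest in number 1, at -0.34, against -2.52 and -1.84 in numbers 2 and 3.

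Tlr7 read 1.68, 1.45 and 1.51 in EGFP+, against 2.87, 3.41 and 1.96 in EGFP-. The groups did not overlap, though EGFP- replicate 3 came within 0.45 of its EGFP+ partner. The log2 difference was -1.20 (SE 0.38, adjusted p 0.986 by limma), while the 2 other Tlr7 probe sets gave -0.22 and -0.18. These 2 probe sets read 1.23 to 1.66 and 1.10 to 1.85, near background in both gates.

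Tlr3 read 5.15, 5.56 and 6.19 in EGFP+, against 4.30, 5.29 and 4.91 in EGFP-. It was higher in EGFP+ in each pair, by 0.85, 0.27 and 1.28, but EGFP+ replicate 1 lay below EGFP- replicate 2. The means were 5.63 ± 0.53 in EGFP+ and 4.83 ± 0.50 in EGFP- (SD), a log2 difference of 0.80 (SE 0.37, 95% interval -0.12 to 1.71). A second Tlr3 probe set, above background in all 6 libraries, gave 0.10. It read 2.81, 3.43 and 3.89 in EGFP+, against 3.16, 3.35 and 3.30 in EGFP-, so EGFP+ was lower in number 1. For the probe set used, the difference was 0.52 without EGFP+ replicate 3, 0.53 without EGFP- replicate 1 and 1.36 with EGFP+ replicate 3 alone. Tlr8, Tlr9, a receptor for unmethylated CpG DNA, and Tlr12 were dim, with readings of 1.11 to 1.81, 1.19 to 1.73 and 1.28 to 1.94 and lower means in EGFP+.

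Both co-receptors averaged lower in EGFP+ and were lower in all 3 pairs. Cd14, which hands lipopolysaccharide to TLR4 and marks monocytes and macrophages, read 7.0, 5.42 and 2.55 in EGFP+, against 7.49, 8.23 and 7.25 in EGFP-. The EGFP+ libraries spread over a far wider range than the EGFP- libraries, with EGFP+ replicate 1 close to them. The means were 4.99 ± 2.26 in EGFP+ and 7.66 ± 0.51 in EGFP- (SD), and the log2 difference of -2.67 (SE 1.13, 95% interval -5.50 to 0.16) was the widest of the 44. Its adjusted p was 1.00 by limma. The difference was -1.45 without EGFP+ replicate 3, -3.67 without EGFP+ replicate 1 and -5.11 with EGFP+ replicate 3 alone.

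Ly96, which encodes MD-2, the lipopolysaccharide-binding partner of TLR4, read 2.98, 3.64 and 1.89 in EGFP+, against 3.47, 4.56 and 3.05 in EGFP-. The groups overlapped, and the difference was -0.86 (SE 0.58). The receptor and its co-receptors therefore differed in their values: Tlr4 had a difference of 0.16, beside -2.67 for Cd14 and -0.86 for Ly96. Whether these differences differ from each other was not tested.

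The shared adaptors and kinases overlapped between the gates, with 0 of the 5 genes separated, beside 6.04% of all genes lower and 3.07% higher. Myd88, the adaptor of nearly all Toll-like receptors, read 6.20, 5.98 and 5.35 in EGFP+, against 5.94, 6.09 and 6.17 in EGFP-. The difference of -0.22 (SE 0.24, 95% interval -0.83 to 0.38) came from EGFP+ replicate 3, without which it was 0.02. Irak1, the kinase recruited by MyD88, read 7.34, 6.92 and 6.92 in EGFP+, against 7.11, 7.06 and 7.06 in EGFP-. Its difference was -0.01 (SE 0.15, 95% interval -0.39 to 0.37), and its 3 other probe sets gave 0.16, -0.16 and 0.05. Ticam1, the TRIF adaptor of TLR3 and TLR4, read 3.61, 3.08 and 3.31 in EGFP+, against 3.21, 3.66 and 3.21 in EGFP-, a difference of -0.03 (SE 0.21).

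The other IRAK family members averaged lower in EGFP+, with overlap. Irak3, known as a brake on the pathway in macrophages, read 2.65, 3.37 and 1.95 in EGFP+, against 2.87, 4.80 and 3.68 in EGFP-. The values overlapped, and the difference was -1.13 (SE 0.59), while a second probe set, near background at 1.29 to 1.63, gave -0.14. Irak2 read 2.59, 2.78 and 2.64 in EGFP+, against 2.73, 2.89 and 4.11 in EGFP-, and its difference of -0.58 (SE 0.39) came mostly from EGFP- replicate 3.

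**Figure D2:**
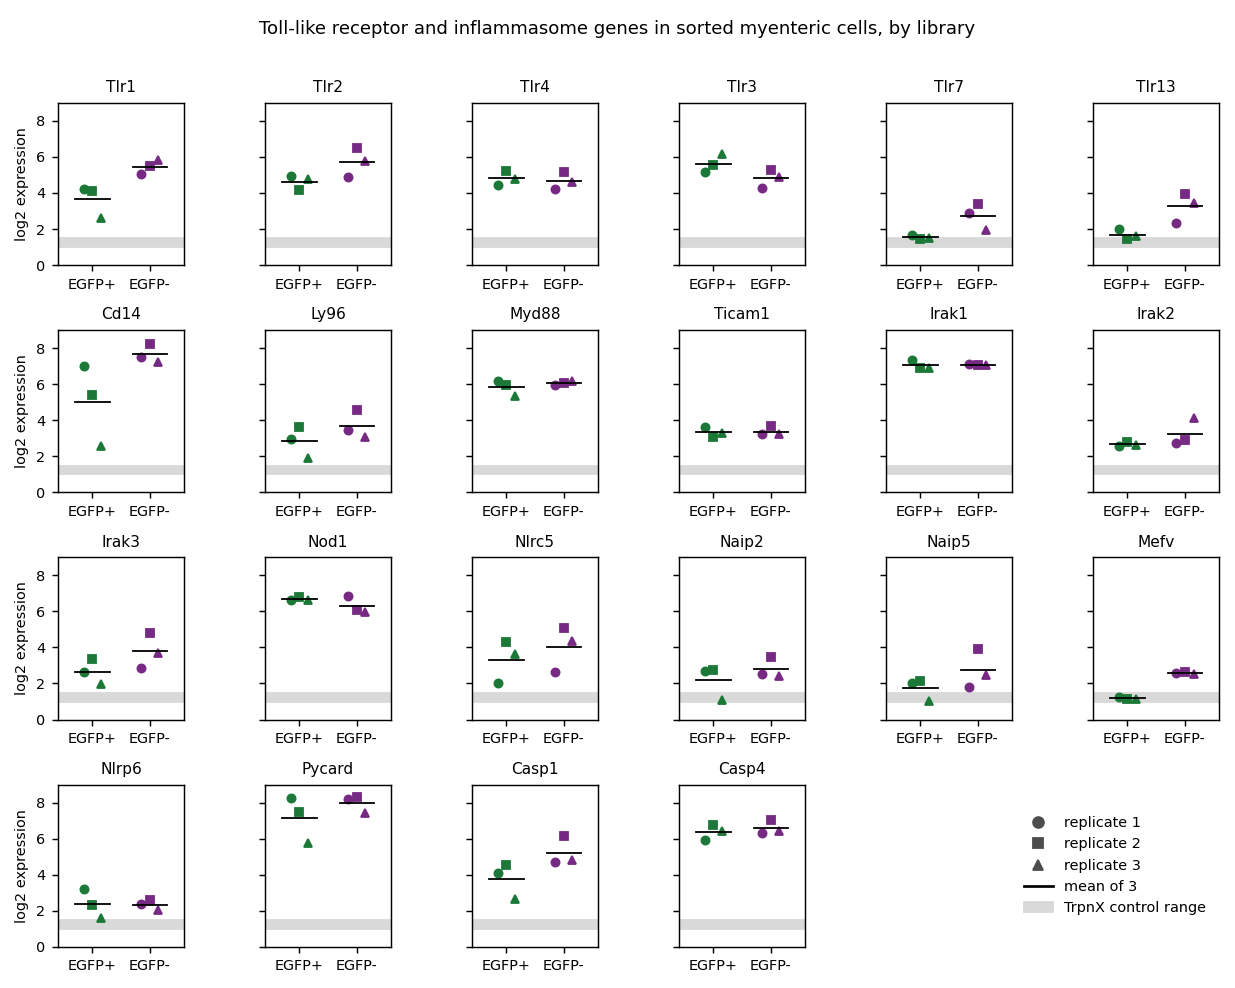
Deposited log2 values (y axis) of Mefv and the 21 genes that read 3 or more in some library, in the 3 EGFP+ libraries (green, left) and the 3 EGFP- libraries (purple, right), with symbols for the replicate number and lines for the means. The grey band is the TrpnX background, 1.00 to 1.48; Mefv sits inside it in EGFP+, and Cd14 spreads from 2.55 to 7.0 in EGFP+.

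Of the cytosolic sensors outside the inflammasome, Nod1 read 5.94 or more in every library. Of the 3, 0 separated the gates, beside 6.04% of all genes lower without overlap and 3.07% higher. Nod1, a sensor of bacterial peptidoglycan, read 6.63, 6.78 and 6.64 in EGFP+, against 6.88, 6.10 and 5.94 in EGFP-. The difference was 0.38 (SE 0.27, 95% interval -0.29 to 1.04). Nlrc5, a regulator of MHC class I genes, read 2.02, 4.29 and 3.62 in EGFP+, against 2.62, 5.09 and 4.35 in EGFP-. Libraries of number 1 were low in both gates, and the pair differences of -0.60, -0.80 and -0.74 were much alike. The SE of its difference of -0.71 was 0.84 without the replicate block and 0.12 with it, and the adjusted p in the paired fit was at least 0.661 by limma.

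Nlrc3, known as a negative regulator in immune cells, read 2.56, 2.17 and 1.46 in EGFP+, against 2.52, 2.94 and 3.00 in EGFP-. It stayed under 3 before rounding, and its difference was -0.75 (SE 0.32). It was -0.45 without EGFP+ replicate 3, -1.36 with that library alone and -0.40 with the mean of all its probe sets. The second Nlrc3 probe set read 1.12 to 1.52, near background.

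The NAIP proteins bind flagellin and parts of bacterial secretion systems and start the NLRC4 inflammasome. Their genes are near-identical copies, so probe sets may not tell them apart. Naip2 read 2.68, 2.73 and 1.09 in EGFP+, against 2.55, 3.49 and 2.42 in EGFP-, a difference of -0.65 (SE 0.55). Naip5 read 2.04, 2.16 and 1.05 in EGFP+, against 1.79, 3.93 and 2.47 in EGFP-, a difference of -0.98 (SE 0.62). In both genes EGFP+ replicate 3 was at background and the groups overlapped. Naip6 was dim, at 1.13 to 1.92.

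The inflammasome sensors were dim, apart from 1 library of Nlrp6, and 3 of the 6 were lower in EGFP+ without overlap, beside 6.04% of all genes. Mefv, which encodes pyrin, a sensor known from neutrophils and monocytes, read 1.26, 1.16 and 1.14 in EGFP+, against 2.58, 2.61 and 2.52 in EGFP-. The 3 libraries of each gate differed by little, and the gates stood far apart against that spread. The means were 1.19 ± 0.06 in EGFP+ and 2.57 ± 0.05 in EGFP- (SD), a log2 difference of -1.38 (SE 0.10, 95% interval -1.64 to -1.12).

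That separation gave Mefv the smallest unadjusted p of all 18193 genes, 1.87e-05 by limma, and the adjusted p was 0.34. That rank was not kept in every setting: Mefv was 3 in rank with the replicate block, 13 without EGFP+ replicate 1 or without EGFP- replicate 1, and 191 with EGFP+ replicate 3 alone. Over the alternatives run its difference ran from -1.45 to -1.36 and its adjusted p from 0.129 to 1.0. All 3 EGFP+ readings lay within the TrpnX range, so they set no exact size for the gap, and the EGFP- readings were above that range but dim.

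The remaining sensors were weaker in signal. Aim2, the sensor of cytosolic DNA, read 1.91, 1.63 and 1.62 in EGFP+, against 2.10, 2.02 and 2.03 in EGFP-, a difference of -0.33 (SE 0.13). Nlrp3, the sensor of potassium loss and many danger signals, read 2.00, 1.36 and 1.55 in EGFP+, against 2.43, 1.98 and 2.06 in EGFP-. EGFP+ replicate 1 read above EGFP- replicate 2, so the Nlrp3 groups overlapped, and its difference was -0.52 (SE 0.22) with like values of -0.43, -0.62 and -0.51 in the 3 pairs.

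Nlrp6, known from the intestinal epithelium, read 3.21, 2.32 and 1.61 in EGFP+, against 2.38, 2.58 and 2.02 in EGFP-. The highest and the lowest value were both in EGFP+, and the difference was 0.05 (SE 0.42). The 8 epithelial markers moved with it in the EGFP+ libraries, averaging 8.57, 7.90 and 5.35 in EGFP+, against 7.07, 7.62 and 6.22 in EGFP-; their part in the Nlrp6 values was not tested. Nlrp12, known from myeloid cells, read 1.22, 1.18 and 1.16 in EGFP+, against 1.57, 1.35 and 1.25 in EGFP-. It was lower without overlap in EGFP+ but close to background in both gates, with a difference of -0.20 (SE 0.13). Nlrp10 read 1.12 to 1.5.

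The adaptor and the caspases of the inflammasome were well above background in most libraries. Casp1, the caspase that matures interleukin-1 beta, read 4.11, 4.55 and 2.63 in EGFP+, against 4.71, 6.12 and 4.79 in EGFP-. All EGFP+ libraries lay below all EGFP- libraries, and the pair differences were -0.60, -1.58 and -2.16. The means were 3.76 ± 1.01 in EGFP+ and 5.21 ± 0.79 in EGFP- (SD), a log2 difference of -1.45 (SE 0.63). It was -0.88 without EGFP+ replicate 3 and -2.58 with that library alone.

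Pycard, the gene of the adaptor ASC, read 8.24, 7.48 and 5.75 in EGFP+, against 8.19, 8.31 and 7.41 in EGFP-. The libraries of number 1 were alike, and EGFP+ replicate 3 was the lowest of the 6. The difference was -0.81 (SE 0.67). It moved with 1 library, to -0.11 without EGFP+ replicate 3 and -2.22 with that library alone. The 2 other Pycard probe sets gave -0.25 and 0.04, from readings of 1.54 to 2.26 and 1.13 to 1.28, at or near background. Casp4, the caspase that binds cytosolic lipopolysaccharide, read 5.94, 6.73 and 6.42 in EGFP+, against 6.31, 7.06 and 6.44 in EGFP-. The groups overlapped, and its difference of -0.24 (SE 0.29) was within the spread between libraries.

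The remaining NLRP genes, several of which are known from oocytes and early embryos, were dim in both gates. Nlrp4a, Nlrp4b, Nlrp4c, Nlrp4e, Nlrp4f, Nlrp5, Nlrp5-ps, Nlrp9a, Nlrp9b, Nlrp9c and Nlrp14 read 0.99 to 2.29 over the 6 libraries. Their differences ran from -0.25 to 0.12, with 6 lower and 5 higher in EGFP+. Of the 11, 0 were without overlap, beside 6.04% of all genes lower and 3.07% higher. Nlrp14, Nlrp4b and Nlrp4c did not leave the TrpnX range.

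**Figure D3:**
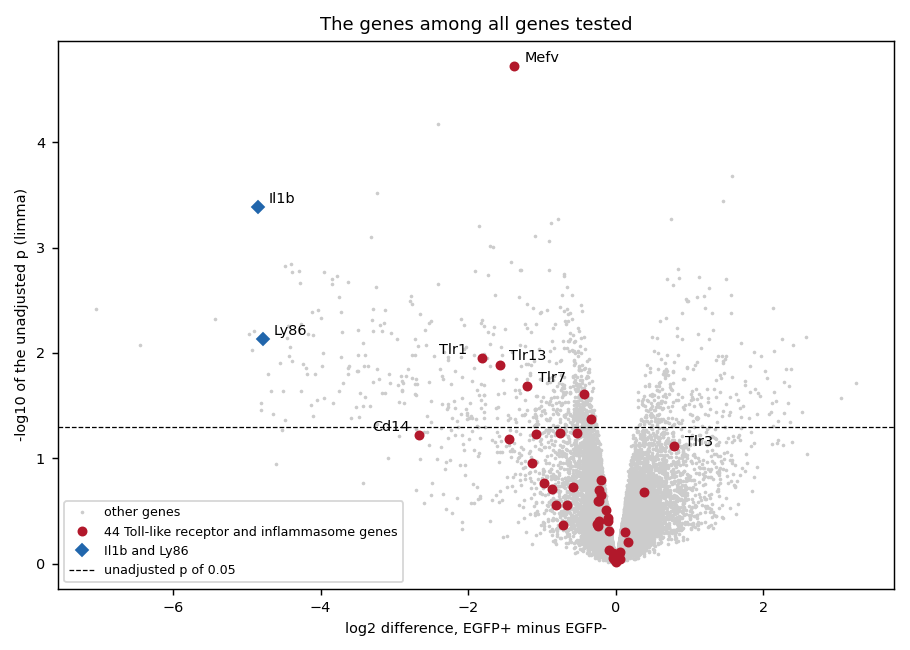
Log2 difference (x axis, EGFP+ minus EGFP-) against the negative log10 of the unadjusted limma p (y axis) for all 18193 genes, with the 44 genes in red, Il1b and Ly86 as blue diamonds, and a dashed line at an unadjusted p of 0.05. Mefv is the topmost point, and 6 of the 44 genes lie above the line, all of them lower in EGFP+.

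Genes around the receptors were taken from 6 lists of partners, brakes and outputs, of which 61 of 68 genes were measured. By limma, 0 of the 61 had an adjusted p under 0.05. At an unadjusted limma p under 0.05, 8 were lower in EGFP+ and 0 were higher, beside the 3.42% and 1.48% of all genes. The 8 were Unc93b1, Ly86, Btk, Il1b, Pstpip1, Tnf, Ccl5 and Cxcl2. With the replicate number as a block, 9 were lower, beside 4.54% of all genes, and P2rx7 was the 1 gene higher, beside 2.85%. Of the 9, 5 were also in the count without the block, with Tnfaip3, Casp8, Zbp1 and Cxcl10 added and Pstpip1, Tnf and Ccl5 no longer counted. The mean was lower in EGFP+ for 44 and higher for 17, beside 9748 and 8441 of all 18193 genes. The median difference of the 61 was -0.20, against -0.02 over all genes. Without overlap, 8 of the 61 were lower, beside 6.04% of all genes.

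Il1b, the gene of interleukin-1 beta, separated the gates clearly. It read 4.40, 2.01 and 4.11 in EGFP+, against 8.27, 8.5 and 8.31 in EGFP-. Each EGFP+ library lay far below the EGFP- libraries, which were nearly equal. The means were 3.51 ± 1.31 in EGFP+ and 8.36 ± 0.12 in EGFP- (SD), a log2 difference of -4.85 (SE 0.65, adjusted p 0.951 by limma). With EGFP+ replicate 3 alone it was -4.25.

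Il18, the gene of the other cytokine that caspase-1 matures, did not separate the gates. It read 7.61, 7.06 and 5.52 in EGFP+, against 7.80, 7.09 and 5.81 in EGFP-, so that each number had like values in both gates and the difference was -0.17 (SE 0.73). Of the 11 inflammasome partners and products measured, 3 were lower without overlap, beside 6.04% of all genes, namely Il1b, Il1a, which was dim, and Casp8, an initiator caspase. Casp8 read 6.57, 6.57 and 5.92 in EGFP+, against 7.46, 6.99 and 6.68 in EGFP-. Gsdmd, the pore protein cut by inflammatory caspases, had a difference of -0.33 (SE 0.33). P2rx7, the ATP-gated channel upstream of NLRP3, read 4.79, 4.73 and 6.5 in EGFP+, against 3.15, 4.47 and 4.82 in EGFP-, a difference of 1.19 (SE 0.66) with overlap through EGFP- replicate 3. The list's median was -0.17.

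In the list of receptor trafficking and ligand transfer, 3 of 7 genes were lower without overlap, beside 6.04% of all genes, and the median was -0.23, against -0.02 over all genes. Ly86, whose product MD-1 pairs with the B-cell and myeloid receptor RP105, read 6.03, 2.15 and 1.84 in EGFP+, against 8.18, 8.52 and 7.67 in EGFP-. The difference was -4.78 (SE 1.16, adjusted p 0.951 by limma), and EGFP+ replicate 1 stood between the other EGFP+ libraries and the EGFP- libraries. Unc93b1, which carries nucleic acid receptors to endosomes, read 4.41, 3.98 and 3.58 in EGFP+, against 5.24, 5.53 and 4.86 in EGFP-, a difference of -1.22 (SE 0.28, adjusted p 0.951 by limma). Cd36, a scavenger receptor that works with TLR2, read 6.33, 7.98 and 7.80 in EGFP+, against 8.51, 8.47 and 8.40 in EGFP-, with EGFP+ replicate 1 the lowest.

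The 14 output genes all averaged lower in EGFP+, by a median of -0.29, against -0.02 over all genes. Of these, 1 was without overlap, a share near the 6.04% of all genes. Cxcl2, a chemokine for neutrophils, read 6.11, 5.82 and 4.21 in EGFP+, against 7.85, 7.99 and 8.63 in EGFP-. The difference was -2.78 (SE 0.55, adjusted p 0.951 by limma), and it was -3.95 with EGFP+ replicate 3 alone. Ccl5, a chemokine for T cells and monocytes, read 2.30, 1.38 and 0.98 in EGFP+, against 2.30, 6.76 and 5.86 in EGFP-, so the libraries of number 1 were equal. Tnf read 1.90, 1.48 and 1.49 in EGFP+, against 1.80, 3.04 and 2.88 in EGFP-, with the same overlap in number 1. Nfkbia, the inhibitor and target of NF-kB, was bright in every library, with a difference of -0.21 (SE 0.25).

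Of 14 adaptors and kinases measured, 7 averaged lower and 7 higher, the median was 0.02, and Btk, a kinase of B cells and myeloid cells, was the 1 gene without overlap, at -1.31 (SE 0.47). Of 8 brakes, 6 averaged lower and 2 higher, with a median of -0.19 and 0 without overlap. Tollip, an inhibitor of IRAK1, had a difference of 0.48 (SE 0.22), and Tnfaip3, the A20 protein, one of -1.15 (SE 0.58). Of 7 cytosolic nucleic acid sensors outside the inflammasome, 6 averaged lower and 1 higher, the median was -0.13 and 0 were without overlap. The count of 1 of 14 and both counts of 0 stand beside 6.04% of all genes lower and 3.07% higher without overlap. The share of 1 in 14 was near the 6.04%.

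Markers of other cell types also differed between the gates. Of 15 macrophage and monocyte markers, all 15 averaged lower in EGFP+ and were lower in all 3 pairs, and 8 were without overlap, beside the 6.04% of all genes. Their mean was 5.61, 2.90 and 2.04 in EGFP+, against 7.19, 7.57 and 5.95 in EGFP-. EGFP+ replicate 1, in which Cd14 and Ly86 stood nearest to the EGFP- libraries, held the highest mean of the 3, and EGFP+ replicate 3 the lowest. Not every gene kept that order. Of the EGFP+ libraries, Casp1, Ly96 and Irak3 read highest in replicate 2, and Cd36 read lowest in replicate 1. Csf1r, the receptor for macrophage colony-stimulating factor, still read 8.98, 7.24 and 5.38 in EGFP+, against 9.59, 9.66 and 8.55 in EGFP-. C1qc, a complement gene of tissue macrophages, read 6.55, 1.27 and 0.48 in EGFP+, against 8.23, 8.39 and 6.09 in EGFP-, so that it was at or below the TrpnX range in EGFP+ replicates 2 and 3.

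Most markers of other white cells also averaged lower in EGFP+, with Ltf, Zbtb46 and Ms4a2 as the exceptions. The 8 neutrophil markers measured averaged 2.26, 1.55 and 2.84 in EGFP+, against 3.22, 3.62 and 4.88 in EGFP-, with 4 without overlap. S100a8 read 4.44, 2.25 and 6.31 in EGFP+, against 7.27, 8.38 and 9.92 in EGFP-, while Cxcr2, the neutrophil chemokine receptor, read 0.89 to 1.73 in all libraries. The 5 B and plasma cell markers averaged 1.89, 0.94 and 0.93 in EGFP+, against 3.06, 5.65 and 6.67 in EGFP-, all 5 without overlap. The 7 dendritic cell markers averaged 1.68, 1.84 and 1.51 in EGFP+, against 1.92, 2.46 and 2.42 in EGFP-, with 4 without overlap. The 8 T cell and mast cell markers averaged 1.57, 1.30 and 1.30 in EGFP+, against 1.66, 2.23 and 2.88 in EGFP-, with 3 without overlap. Each of these counts stands beside 6.04% of all genes lower without overlap. Some of the markers counted, such as Flt3 (1.42 to 2.42) and Cd5 (1.11 to 1.82), were dim. In bulk samples, fewer cells of a type and less RNA per cell cannot be told apart, and the part of these cell types in the differences of the 44 genes was not tested.

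Enteric glia went the opposite way. The 7 glial markers averaged 6.35, 6.07 and 8.23 in EGFP+, against 4.58, 5.82 and 5.43 in EGFP-, with all 7 higher in EGFP+ on average and 3 of them without overlap, beside 3.07% of all genes. The library with the highest glial and neuronal means, EGFP+ replicate 3, was also the one with the highest Tlr3 and P2rx7. The part of these markers in the Tlr3 and P2rx7 values was not tested. Of the supporting cells, fibroblast markers averaged 10.65, 11.11 and 10.36 in EGFP+, against 10.54, 11.33 and 11.30 in EGFP-, and smooth muscle markers 9.59, 9.08 and 11.09 in EGFP+, against 10.04, 9.41 and 11.30 in EGFP-. Endothelial markers averaged 6.08, 7.16 and 4.53 in EGFP+, against 6.44, 6.97 and 6.35 in EGFP-, and mesothelial markers 9.46, 8.88 and 7.07 in EGFP+, against 9.21, 8.48 and 7.36 in EGFP-. Fibroblast and smooth muscle transcripts were thus bright in all 6 libraries, the sorted EGFP+ libraries included.

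**Figure D4:**
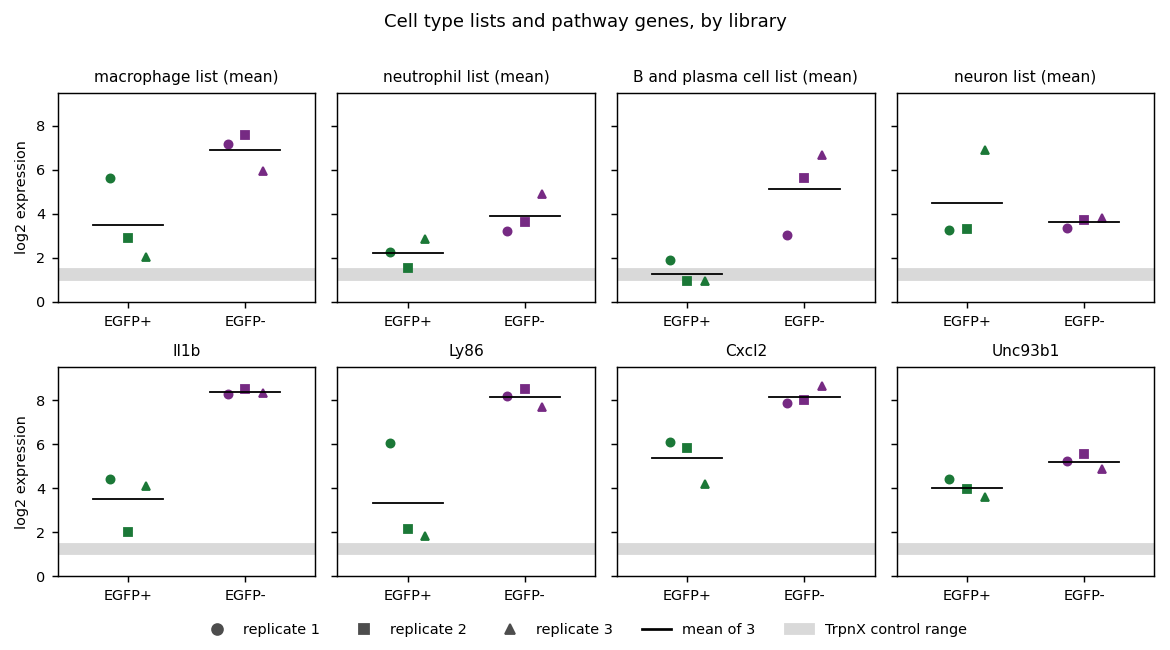
Log2 values (y axis) in the 3 EGFP+ libraries (green, left) and the 3 EGFP- libraries (purple, right): the mean of 4 marker lists in the upper row and 4 pathway genes in the lower row, with lines for the group means and a grey band for the TrpnX background, 1.00 to 1.48. The macrophage list is at 2.90 and 2.04 in EGFP+ replicates 2 and 3, and the neuron list stands out in EGFP+ replicate 3 at 6.92.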

How the data were processed

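Cells of 6 sorted samples, 3 per gate, were profiled on 1-colour arrays. The authors deposited log2 values per probe set and array. RMA is named in the submitters' processing notes, and its version and settings are not stated there. The scale was judged to be log2 because the values run from 0.05 to 15.2. Column medians of 1.91 to 1.99 and unequal upper quartiles, 4.08 to 4.86, are unusual for RMA, so little rests on small differences near background. The number of arrays limits the precision.

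Of 45101 probe sets, 64 were controls, 34945 had 1 gene symbol in the platform annotation, 932 had several and 9160 had none. Only those with 1 symbol were used, 1 per gene by the highest mean, which left 18193 genes; 0 symbols of the 44 genes differed from RefSeq. The test was limma 3.58.1 in R 4.3.3 (eBayes after lmFit, two-sided, Benjamini-Hochberg adjustment over all genes, threshold 0.05). It was also run on simulated data, and that outcome is not reported here. Nothing says that the samples share no mice or day, so p-values measure the spread between these 6 samples. Replicates are numbered 1 to 3 in either gate; deviations from the group means of same-numbered libraries correlated at 0.36, 0.32 and 0.42 over genes, so the numbers were taken to pair the libraries, as a property of the data that the labels do not state. The reported fit has no block, and the blocked fit is given where it moved a count.

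The 44 genes and all lists were chosen with earlier results of these data known. Every one of the 44 is named. Values in every library were asked for Mefv, Cd14, genes with a higher group mean of at least 6, genes without overlap with a higher group mean of at least 3, the 6 largest differences, and pathway genes without overlap with a higher group mean of at least 6; all others that read 3 or more somewhere, the dim sensors, Unc93b1, Il18, P2rx7, Gsdmd, Tollip, Tnfaip3, Btk, Ccl5, Tnf, Nfkbia, Il1a, Zbp1, Cxcl10, Pstpip1, Ltf, Zbtb46, Ms4a2, Csf1r, C1qc, S100a8 and Cxcr2 were added after their values were seen. Lists covered macrophages, neutrophils, dendritic, B and plasma, T and mast cells, glia, neurons, epithelium, fibroblasts, smooth muscle, endothelium and mesothelium, and 6 groups of pathway genes. Another 14 settings, and 1 added after the values were seen, were tried. Figures used Python 3.11.15, pandas 2.3.3 and matplotlib 3.10.9.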

Additional observations from a re-analysis of the deposited data

How the results depend on the processing

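Under all 15 alternatives 0 of the 44 genes and 0 of the pathway genes passed an adjusted p of 0.05 by limma, and the smallest adjusted p of the 44 was 0.129. Over all genes the number past it ran from 0 to 2 when single libraries were left out; without EGFP+ replicate 1 the genes were Ccr2 and Fermt3, neither of them among the 44. The median difference of the 44 genes stayed between -0.30 and -0.14. Of 480 comparisons of 33 named genes with an alternative, 466 kept the sign and 14 reversed it, and 28 of the genes did not reverse in any. The 5 that did had reported differences of -0.22 to 0.16. Irak1 was 0.0098 with the mean of all probe sets and ran from -0.15 to 0.06 with single libraries left out; likewise Myd88 ran from -0.40 to 0.02, Ticam1 from -0.17 to 0.12 and Tlr4 from -0.06 to 0.41. Nlrp6 was -0.0046 with a second quantile normalization, -0.0011 with array weights, -0.71 with EGFP+ replicate 3 alone, and ran from -0.36 to 0.44 with single libraries left out. The number of the 44 lower without overlap was 3 when only genes above the median level were tested, a setting that kept 13 of them (5.68% of all genes so tested), 31 with EGFP+ replicate 3 alone (29.2%), and 9 to 16 with single libraries left out (9.14% to 15.1%). The number higher without overlap was 1 with a second quantile normalization (3.65% of all genes), 1 with EGFP+ replicate 3 alone (23.2%), and 0 to 1 with single libraries left out (6.34% to 7.37%). Causes were not tested. The replicate block changed no call at an adjusted p of 0.05: Mefv had 0.661 in the blocked fit. For the 23 dim genes, signal over background limits what can be read, and no order among them is given.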
